A study of Homo sapiens with 6 samples.

Results

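Collagens, laminins and matrix glycoproteins are the secreted proteins that build the scaffold around cells, and their genes were read here in mesothelioma cells after inhibition of miR-503. The 43 genes were chosen by name, from knowledge of the matrix but with earlier results of these data known. Each was represented by the array row whose platform annotation carries its symbol. Of these 43 genes, 38 had a named row, 1 each, among the 21448 rows tested, and the other 5 (2 collagens and 3 laminin chains) had no row named for them. The cells were MSTO-211H, an established human mesothelioma line. Anti-miR-503 cells (3 biological replicates) received an inhibitor of miR-503 for 48 h, and control cells (3 biological replicates) are titled as untreated. The control arm is not settled, since the treatment note on every sample gives a vehicle of 0.1% DMSO and the study's methods give a negative-control inhibitor in one sentence and untreated cells in another. All 6 samples shared the culture medium and the extraction, and 100 ng of total RNA from each was labelled with biotin and hybridised to 1 Clariom S array, which reads 1 colour. The cultures were of 1 cell line, so the replicates carry no variation between tumours, and the labels do not say whether they were grown apart. No measurement of miR-503 itself was used here.

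Fibril-forming collagens are triple helices that assemble into the tensile fibres of connective tissue, while network collagens such as type IV polymerise into the sheet of the basement membrane. Laminins are trimers of an alpha, a beta and a gamma chain that form a second network in that sheet, and nidogens bridge the laminin and type IV collagen networks. Fibronectin and the matricellular proteins (thrombospondins, SPARC, tenascin, periostin) connect this scaffold to cell surface receptors and tune adhesion and migration. Mesothelial cells rest on a basement membrane, and mesotheliomas can lie in a dense collagenous stroma.

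The agent used was an inhibitor of hsa-miR-503-5p, a small RNA that pairs with messenger RNAs through its seed, bases 2 to 8 counted from the 5′ end. Its mature sequence is shown here with those of hsa-miR-424-5p, which lies beside it on chromosome X, and of hsa-miR-16-5p and hsa-miR-497-5p, because these relatives share most of the seed and an inhibitor acts by pairing. Sequences are from RefSeq on GRCh38.p14, 5′ to 3′, with the seed in capitals:
hsa-miR-503-5p: uAGCAGCGggaacaguucugcag
hsa-miR-424-5p: cAGCAGCAauucauguuuugaa
hsa-miR-16-5p: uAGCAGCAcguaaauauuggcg
hsa-miR-497-5p: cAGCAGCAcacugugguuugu
The other 3 miRNAs carry one and the same seed, which departs from that of miR-503 by a single substitution, G8A (the base of miR-503 first, its position in the miRNA, then the base of the relative). Pairing of any matrix transcript with these seeds was not examined.

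Values are log2 signals after RMA (robust multi-array average), the summary that the authors deposited, so that a difference of 1 is a 2-fold difference. A signal counts the RNA of the whole culture, in which fewer cells making a transcript and less of it per cell cannot be told apart. The array medians lay between 6.56 and 6.63, and the background, taken as the 95th percentile of 612 negative control rows of the same array, lay between 7.44 and 8.09. Of the 38 matrix genes, 18 were above background on at least 1 array of each group, 14 of them on all 6 arrays. A further 3 were above background in anti-miR-503 cells alone and 17 on no array. The number of matrix genes above background on an array was 19, 20 and 19 in anti-miR-503 cells and 15, 15 and 17 in control cells. Of all rows, 42.2%, 43.6% and 43.6% were above it in anti-miR-503 cells and 41.8%, 40.3% and 42.2% in control cells. The background itself was 7.755, 7.537 and 7.442 on the anti-miR-503 arrays and 7.834, 8.088 and 7.768 on the control arrays. The counts of the groups were thus set against unlike limits. Among 12 markers of mesothelioma cells, MSLN, CALB2, KRT7, KRT8, KRT18 and VIM were above background on all 6 arrays, while WT1, PDPN, KRT5, KRT19 and THBD were on none and UPK3B on 2 control arrays. The markers of endothelium (6) and blood cells (7, HBB being a red cell gene and the others leukocyte genes) were at background throughout. Of 4 smooth muscle markers, 1 (ACTA2) exceeded background on 1 array of each group. Fibroblast markers are given with the collagens that such cells also make.

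No matrix gene passed the test. With limma and Benjamini-Hochberg adjustment over all 21448 rows, 0 of 38 reached an adjusted p under 0.05, as did 0.0% of all rows, and 0 of 38 met the 2-fold threshold (an absolute log2 fold change of 1 or more beside an unadjusted p of 0.05 or less), against 1.79% of all rows. At an unadjusted p of 0.05 or less alone there were 3 of 38 (7.89%), against 6.42% of all rows, a share near that of the array as a whole. These were NID1, FN1 and COL6A2, each higher in anti-miR-503 cells, a direction that 3.28% of all rows had at that p. For FN1 this is opposite to the direction in the study's own table. Every direction given here follows the sample titles, and the files do not settle whether the titles or the sign in that table is turned. An unpaired t test on each row, run as an alternative, put 0 of 38 past an adjusted p under 0.05 and 2 of 38 at an unadjusted p of 0.05 or less (COL6A2 and COL1A2, against 4.74% of all rows). The median log2 fold change was -0.13 over the 38 genes (18 higher, 20 lower in anti-miR-503 cells), against 0.0098 over all rows. It was 0.08 over the 18 genes above background in both groups (11 higher, 7 lower). Over all 9357 rows above background in both groups it was -0.049 (4156 higher, 5201 lower). In 15 of these 18 genes the difference between the groups was smaller than the range among the 3 control arrays, and in 14 smaller than that among the 3 anti-miR-503 arrays.

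**Figure D1:**
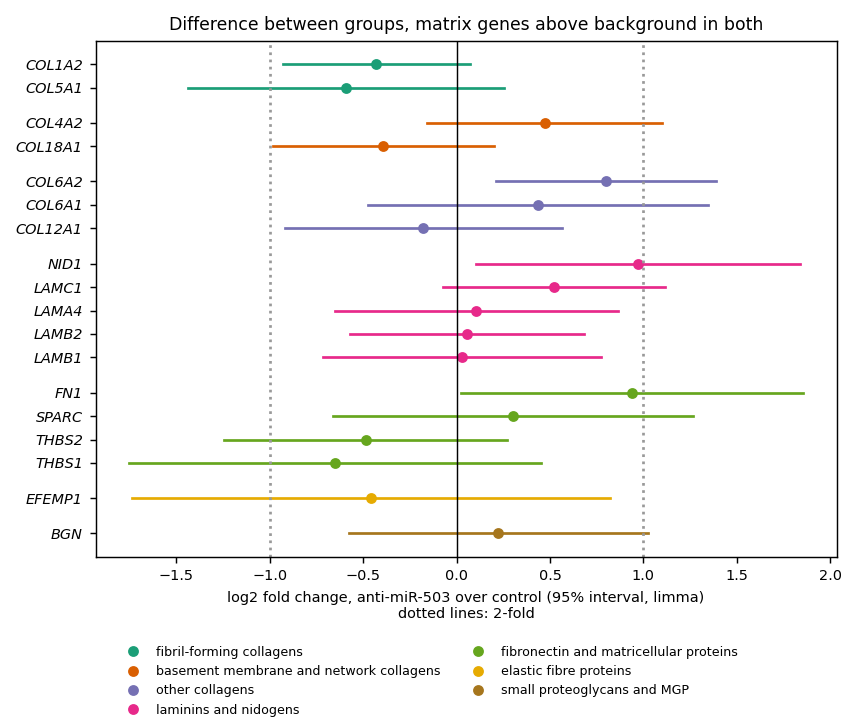
Log2 fold change of anti-miR-503 over control cells (x axis) for the 18 matrix genes above background in both groups (rows, coloured by type), with points for the limma estimate, bars for its 95% interval and dotted lines at a 2-fold difference. The interval spans 0 in 15 genes and lies above it in COL6A2, NID1 and FN1.

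All 6 measured laminins and nidogens among the chosen matrix genes had a higher mean in anti-miR-503 cells, with a median log2 fold change of 0.31. In the 5 above background in both groups the median was 0.11. The direction turned in 3 of the 6 when 1 array was left out, with log2 fold changes down to -0.24 for LAMB1, -0.19 for LAMA4 and -0.12 for LAMB2. Laminin chains read outside this list went both ways, with 0.78 for LAMA1, -0.08 for LAMA2, -0.355 for LAMB4 and -0.88 for LAMC3. Of these, only LAMA1 was above background on any array. NID2 was under background on every control array. NID1 encodes nidogen-1, the linker between laminin and type IV collagen. Its log2 signal was 11.76, 12.50 and 12.89 in anti-miR-503 cells and 10.74, 11.81 and 11.70 in control cells. The groups overlapped, since anti-miR-503 replicate 1 lay just under control replicate 2. The means were 12.38 ± 0.57 in anti-miR-503 cells and 11.41 ± 0.59 in control cells (SD, n = 3 each), a log2 fold change of 0.97 (SE 0.38, 1.96-fold), with an unadjusted p = 0.0323 and an adjusted p = 0.756 by limma.

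LAMC1 encodes the gamma chain shared by most laminin trimers. It read 14.97, 15.07 and 15.31 in anti-miR-503 cells and 14.17, 14.65 and 14.96 in control cells. Every anti-miR-503 array stood above every control array, narrowly so for anti-miR-503 replicate 1 over control replicate 3. The log2 fold change was 0.52 (SE 0.26, 95% interval -0.07 to 1.12, adjusted p = 0.759 by limma). The beta chains did not share this separation. LAMB1, the beta chain of the classical laminin trimer, read 14.35, 13.49 and 13.60 in anti-miR-503 cells and 13.31, 13.79 and 14.25 in control cells, with a log2 fold change of 0.03 (SE 0.33). LAMB2, its counterpart at synapses and in the kidney filter, read 8.09, 7.51 and 7.78 in anti-miR-503 cells and 7.39, 7.67 and 8.15 in control cells, and was above background on 2 arrays of anti-miR-503 and 1 of control cells. Its log2 fold change was 0.06 (SE 0.28), and for both beta chains the groups overlapped almost entirely. LAMA4, an alpha chain of vascular and mesenchymal basement membranes, read 11.86, 11.40 and 10.53 in anti-miR-503 cells and 11.09, 11.11 and 11.27 in control cells. The 3 control arrays of LAMA4 lay close together while the anti-miR-503 arrays lay on either side of them, and the log2 fold change was 0.11 (SE 0.33). NID2, the second nidogen, was above background on 2 anti-miR-503 arrays, with log2 signals of 7.18, 8.29 and 7.45 in anti-miR-503 cells and 5.88, 8.08 and 6.37 in control cells. No fold is given for it, as its mean in anti-miR-503 cells did not clear the detection limit set for control cells.

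**Figure D2:**
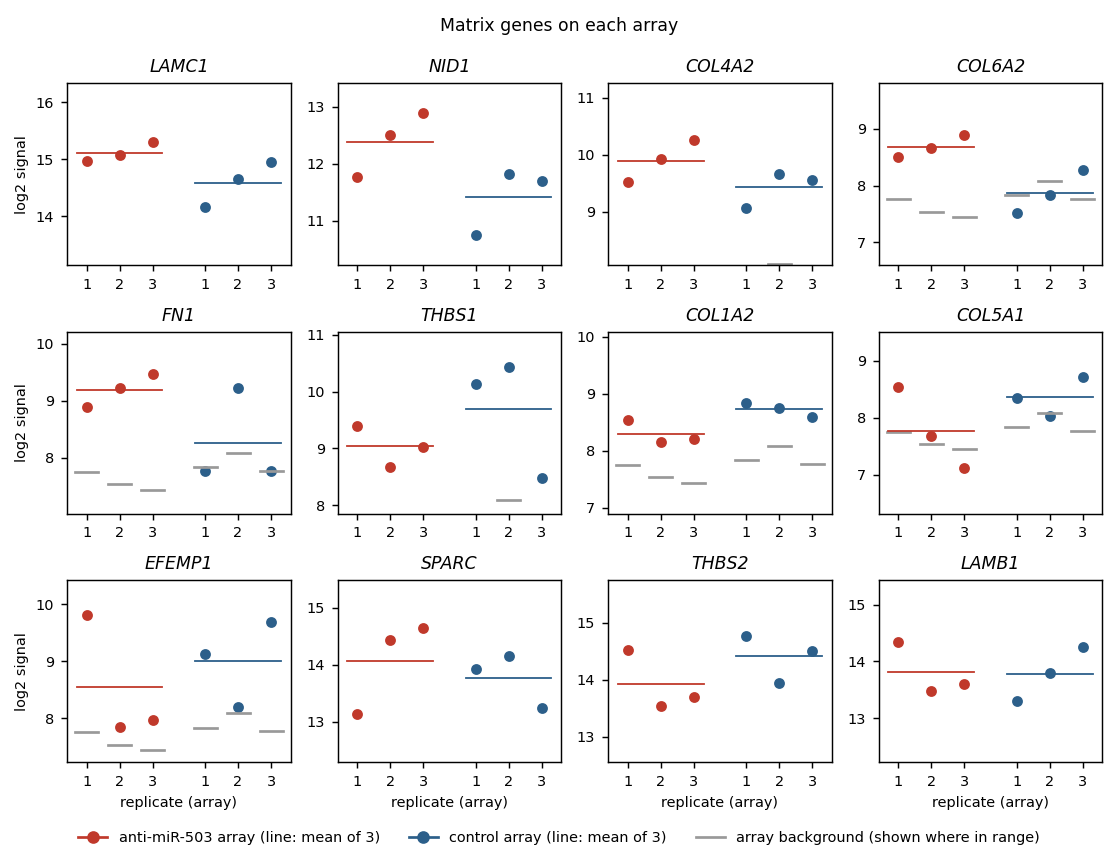
Log2 signal (y axis) of 12 matrix genes on each of the 3 anti-miR-503 arrays (red) and the 3 control arrays (blue), with coloured lines at the group means and grey lines at the background of each array where it falls in range. The groups are apart in LAMC1, COL6A2 and COL1A2 and overlap in the other 9 genes.

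The type IV collagen genes COL4A1 and COL4A2, whose chains form the basement membrane network in a fixed ratio, start 127 bases apart on chromosome 13 (COL4A1 at 110307157 on the minus strand, COL4A2 at 110307284 on the plus strand, RefSeq GRCh38.p14) and so are read in opposite directions from one stretch of DNA. COL4A2 read 9.52, 9.92 and 10.26 in anti-miR-503 cells and 9.06, 9.66 and 9.56 in control cells. Anti-miR-503 replicates 2 and 3 were above all control arrays and replicate 1 was among them, with a log2 fold change of 0.47 (SE 0.28, 95% interval -0.16 to 1.10, adjusted p = 0.774 by limma). The COL4A1 row stayed under background on every array, at 4.95 to 5.89 in anti-miR-503 cells and 4.40 to 5.23 in control cells, which gives no level of that transcript. COL18A1, a basement membrane collagen whose cleaved end is endostatin, read 9.21, 8.57 and 9.34 in anti-miR-503 cells and 9.31, 9.46 and 9.54 in control cells. It was lowest on anti-miR-503 replicate 2, and its log2 fold change was -0.39 (SE 0.26, adjusted p = 0.784 by limma). The network collagen COL8A1, an endothelial and corneal basement membrane component, was above background on 2 anti-miR-503 arrays alone, at 7.13, 7.68 and 8.31 in anti-miR-503 cells and 7.42, 7.89 and 6.66 in control cells.

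The fibril-forming collagens among the chosen matrix genes had lower values in anti-miR-503 cells that did not pass the test. All 5 of these measured genes had a lower mean (median log2 fold change -0.43), but COL1A1, COL5A2 and COL11A1 were under background on all arrays. Fibril-forming collagens among the further collagens, read outside this list, did not share one direction. Their log2 fold changes were 0.49 for COL5A3, 0.09 for COL11A2, 0.07 for COL24A1, -0.22 for COL2A1 and -0.05 for COL27A1. Of these, only COL27A1 was above background on any array. COL1A2, the alpha-2 chain of type I collagen, read 8.53, 8.15 and 8.20 in anti-miR-503 cells and 8.84, 8.75 and 8.59 in control cells. The groups did not overlap, and the log2 fold change was -0.43 (SE 0.22, 95% interval -0.93 to 0.07, adjusted p = 0.762 by limma). COL1A1, the partner chain, read 5.81, 5.68 and 6.44 in anti-miR-503 cells and 7.42, 6.57 and 6.16 in control cells, all under background. COL5A1, which helps set the diameter of type I fibrils, read 8.53, 7.67 and 7.11 in anti-miR-503 cells and 8.35, 8.02 and 8.71 in control cells, with a log2 fold change of -0.59 (SE 0.37, adjusted p = 0.777 by limma). It was above background on 2 arrays of each group, and anti-miR-503 replicate 1 lay within the control range. Fibroblasts are the main makers of these fibres in tissue, and of 9 fibroblast markers only PDGFRB and THY1 were above background, PDGFRA, FAP, DPT and PI16 being at background on all arrays. The log2 of the summed signal of the 9 markers ranged over 9.22 to 10.00 in anti-miR-503 cells and 9.60 to 10.29 in control cells. THY1 itself read 8.15, 7.91 and 7.69 in anti-miR-503 cells and 9.35, 8.55 and 8.25 in control cells. The cultures were of 1 mesothelioma line, so these markers are read as signals of that line and not as a share of fibroblasts. Their relation to the collagen values was not tested.

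Type VI collagen forms beaded filaments around cells and anchors the basement membrane to the stroma. COL6A2 read 8.50, 8.66 and 8.88 in anti-miR-503 cells and 7.52, 7.84 and 8.27 in control cells, without overlap. Only 1 of the 3 control arrays was above its background, against all 3 of anti-miR-503 cells. The means were 8.68 ± 0.19 in anti-miR-503 cells and 7.88 ± 0.38 in control cells (SD, n = 3 each), a log2 fold change of 0.80 (SE 0.26, 95% interval 0.21 to 1.39, 1.74-fold), with an unadjusted p = 0.0135 and an adjusted p = 0.756 by limma. COL6A1, which pairs with COL6A2 in the same trimer, read 11.46, 10.74 and 11.02 in anti-miR-503 cells and 9.80, 10.71 and 11.40 in control cells, where the control arrays alone spanned more than the difference of 0.44 (SE 0.40). COL6A3, the third chain, was under background on all arrays. COL12A1, which coats collagen fibrils, read 9.75, 8.71 and 9.29 in anti-miR-503 cells and 8.98, 9.75 and 9.55 in control cells, a log2 fold change of -0.18 (SE 0.33) with overlapping groups. COL16A1, another fibril-associated collagen, was under background throughout. Over the 38 matrix genes, LAMC1 and COL6A2 were higher and COL1A2 lower without overlap of the groups, which is 3 of 38 (7.89%) against 10.5% of all rows (5.92% higher and 4.6% lower).

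FN1 encodes fibronectin, the adhesive glycoprotein that cells bind through integrins. It read 8.89, 9.22 and 9.47 in anti-miR-503 cells and 7.78, 9.22 and 7.77 in control cells. Control replicates 1 and 3 were under background, while control replicate 2 was level with anti-miR-503 replicate 2. The means were 9.19 ± 0.29 in anti-miR-503 cells and 8.25 ± 0.84 in control cells (SD, n = 3 each), and the log2 fold change was 0.94 (SE 0.40, 95% interval 0.02 to 1.85, unadjusted p = 0.0454, adjusted p = 0.756 by limma). The study picked FN1 as a biomarker on these same arrays, so its value is not independent of that choice.

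SPARC, a collagen-binding matricellular protein, read 13.13, 14.44 and 14.65 in anti-miR-503 cells and 13.92, 14.15 and 13.25 in control cells. The lowest arrays were anti-miR-503 replicate 1 and control replicate 3, and the log2 fold change was 0.30 (SE 0.42, 95% interval -0.66 to 1.27, adjusted p = 0.899 by limma). The thrombospondins, which bind matrix, growth factors and the receptor CD47, had lower means in anti-miR-503 cells. THBS1 read 9.40, 8.67 and 9.03 in anti-miR-503 cells and 10.14, 10.43 and 8.47 in control cells. Control replicates 1 and 2 were above all the anti-miR-503 arrays and control replicate 3 below them all, which left a log2 fold change of -0.65 (SE 0.48, adjusted p = 0.805 by limma). THBS2 read 14.53, 13.53 and 13.70 in anti-miR-503 cells and 14.77, 13.95 and 14.51 in control cells, with a log2 fold change of -0.49 (SE 0.33, adjusted p = 0.79 by limma) and with anti-miR-503 replicate 1 inside the control range. TGFBI, an adhesion protein induced by TGF-beta, was above background on 2 anti-miR-503 arrays and no control array, at 8.13, 7.62 and 6.77 in anti-miR-503 cells and 7.19, 6.91 and 7.63 in control cells. Tenascin-C (TNC) and periostin (POSTN) were under background on all 6 arrays.

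The genes of elastic fibres, which give tissue its recoil, were mostly under background. Fibrillins (FBN1, FBN2), elastin (ELN), fibulin-1 (FBLN1) and the microfibril proteins MFAP2 and MFAP5 were under background on every array. EFEMP1, a fibulin of basement membranes and elastic tissue, read 9.81, 7.84 and 7.97 in anti-miR-503 cells and 9.12, 8.20 and 9.68 in control cells. The spread within each group exceeded the difference between them, which was -0.46 on the log2 scale (SE 0.56, adjusted p = 0.883 by limma). Of the small proteoglycans, which coat collagen fibrils, biglycan (BGN) read 11.94, 12.39 and 12.69 in anti-miR-503 cells and 12.38, 11.40 and 12.57 in control cells, a difference of 0.22 (SE 0.35). Decorin (DCN) and lumican (LUM), its fibril-coating relatives, and the calcification inhibitor MGP were under background on all arrays. The 17 genes under background throughout had log2 signals between 2.72 and 7.52, 13 of them with a lower mean in anti-miR-503 cells, and their order carries no information on level.

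Promoter letters were read for the genes whose values lead the account above. RefSeq promoters of 300 bases (250 before the start and 50 after) were at hand for 27 of the 38 matrix genes, and 3 short words were searched on both strands, where matches of different words could overlap. The core promoter word TATAAA was in 4 of 27 (14.8%), against 14.0% of all 27305 genes with such a promoter. The word CCAAT was in 8 of 27 (29.6%), against 39.7% of all genes. The GC box, GGGCGG, was in 21 of 27 (77.8%), against 48.3% of all genes. The 27305 genes were not limited to the 17687 named on the array. A gene with several promoters counted if any of them carried the word. The differences in share were not tested. Windows of 30 bases are shown with the word in capitals, on the strand of the gene, 5′ to 3′ (RefSeq, GRCh38.p14). COL6A2 and THBS2 are shown because their TATAAA starts 32 and 29 bases before the transcript, FN1, NID1 and LAMC1 for 1 window each further upstream, and COL4A2 because COL4A1 shares its window on the other strand:
COL6A2 (chr21:46098068-46098097, plus strand): ggcggggcggggTATAAAgggggcggcgcc
THBS2 (chr6:169253858-169253887, minus strand): ggagaagcggcaTATAAAgccgcgctgccc
FN1 (chr2:215436213-215436242, minus strand): ccggagcccgggCCAATcggcgcgcggtcg
NID1 (chr1:236065224-236065253, minus strand): gcccgctggacgGGGCGGggccctccgctc
LAMC1 (chr1:183023254-183023283, plus strand): ctggagtcgccgGGGCGGacgcgcagtcca
COL4A2 (chr13:110307167-110307196, plus strand): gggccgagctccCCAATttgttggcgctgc
COL6A2 and THBS2 both carry the core word. COL6A2 had a higher and THBS2 a lower mean in anti-miR-503 cells, and neither difference passed the adjusted threshold. The relation of the words to the differences was not tested. The words describe the letters of these windows, and binding to them was not measured.

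Several values turned on single arrays. Without anti-miR-503 replicate 1, 3 of 38 matrix genes met the 2-fold threshold (NID1, FN1 and EFEMP1), against 6.23% of all rows. EFEMP1 then had a log2 fold change of -1.09, and 9 genes (14.5% of all rows) had an unadjusted p of 0.05 or less. Without control replicate 2 there were 3 (NID1, FN1 and NID2, against 2.1% of all rows), and FN1 then reached 1.42, with 4 genes (4.84%) by the unadjusted p alone. Without control replicate 3 there were 4 (NID1, THBS1 and, under background, LUM and COL1A1, against 3.2% of all rows), and THBS1 then reached -1.25, with 6 genes (8.29%) by the unadjusted p alone. Leaving out anti-miR-503 replicate 2 gave 0 at the 2-fold threshold (0.9% of all rows) and 1 (3.01%) by the unadjusted p alone. The counts with anti-miR-503 replicate 3 left out were 0 (0.76%) and 2 (3.04%), and with control replicate 1 left out 0 (1.29%) and 0 (3.58%). In none of these 6 fits did a matrix gene reach an adjusted p under 0.05 by limma, a level that 0.718% of all rows reached when anti-miR-503 replicate 1 was left out and 0.0% in the other 5 fits.

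**Figure D3:**
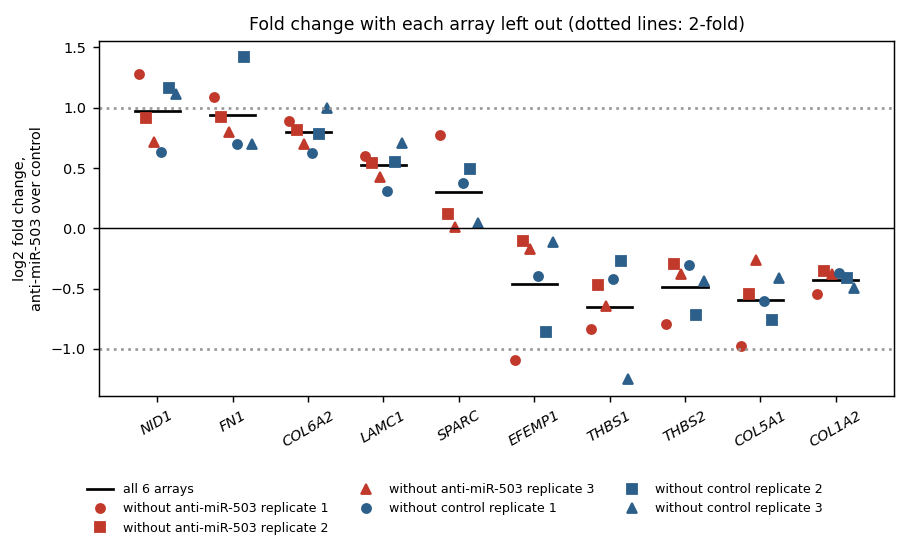
Log2 fold change of anti-miR-503 over control cells (y axis) for 10 matrix genes (x axis) with all 6 arrays (black bars) and with each array left out in turn (red for an anti-miR-503 array, blue for a control array). COL6A2 stays between 0.62 and 1.00 and COL1A2 between -0.55 and -0.36, while THBS1 reaches -1.25 without control replicate 3 and EFEMP1 -1.09 without anti-miR-503 replicate 1.

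Anti-miR-503 replicate 1 and control replicate 3 differed from the other 4 arrays in genes of cell division, and although they belong to opposite groups they had the highest correlation of the 15 pairs of arrays (r = 0.9914, taken across 21448 rows that are no replicates of each other). Anti-miR-503 replicate 1 correlated with the other arrays of its own group at 0.9804 and 0.9775. The mean log2 signal of 12 mitotic genes was 9.39, 12.06 and 11.99 in anti-miR-503 cells and 11.78, 12.07 and 8.59 in control cells, so that each group held 1 low array. These arrays were the 2 highest of the 6 for COL5A1, COL6A1, LAMB1, LAMB2 and EFEMP1 and the 2 lowest for SPARC, which is 6 of the 18 genes above background in both groups (33.3%) against 26.8% of the 9357 rows above background in both groups. With both arrays left out, a choice made after seeing the data that leaves 2 arrays a group, 5 of 38 matrix genes passed the 2-fold threshold (COL6A2, NID1, THBS1 and, under background, LUM and MFAP5, against 7.53% of all rows). THBS1 then had a log2 fold change of -1.44 and an adjusted p = 0.0409 by limma, with 2.37% of all rows past an adjusted p under 0.05. NID1 reached 1.42 (adjusted p = 0.0928 by limma) and COL6A2 1.09 (adjusted p = 0.0885 by limma). The part of the mitotic genes in the matrix values was not tested.

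**Figure D4:**
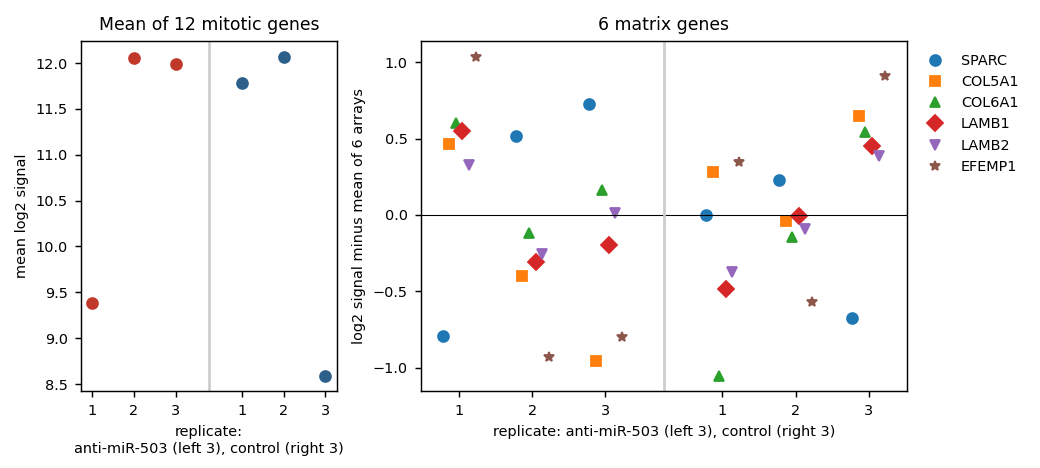
Left, mean log2 signal of 12 mitotic genes (y axis) on each anti-miR-503 array (red) and each control array (blue). Right, log2 signal minus the mean of all 6 arrays (y axis) for the 6 matrix genes in which anti-miR-503 replicate 1 and control replicate 3 were the 2 highest or the 2 lowest of the 6 arrays. The mitotic mean is 9.39 on anti-miR-503 replicate 1 and 8.59 on control replicate 3, and between 11.78 and 12.07 on the other 4.

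Enzymes that modify and join collagen chains had a few larger differences. Of 32 measured genes of collagen processing and crosslinking, 2 passed the 2-fold threshold, against 1.79% of all rows, and none passed the adjusted threshold. Both were higher in anti-miR-503 cells, as were 0.872% of all rows at that threshold. Of the 32 genes, 24 were above background in both groups, against 9357 of all 21448 rows. The list's median log2 fold change was 0.09 (21 higher, 11 lower). PLOD2, which hydroxylates lysines of the collagen ends that become crosslinks, read 12.34, 13.79 and 13.58 in anti-miR-503 cells and 11.40, 12.77 and 11.52 in control cells. Its log2 fold change was 1.34 (SE 0.47, unadjusted p = 0.0204, adjusted p = 0.756 by limma), with anti-miR-503 replicate 1 under control replicate 2. TGM2, a transglutaminase that crosslinks matrix proteins such as fibronectin, read 5.52, 10.31 and 8.68 in anti-miR-503 cells and 5.33, 5.47 and 5.90 in control cells. It was under background on every control array and on anti-miR-503 replicate 1, so its level was at least 1.21-fold higher in anti-miR-503 cells (adjusted p = 0.756 by limma). Anti-miR-503 replicate 1 lay within the control range. This lower limit was 3.02-fold with that array left out and 1.01-fold without anti-miR-503 replicate 3, and no limit above 1 remained without anti-miR-503 replicate 2. The count depended on the arrays, since 7 genes of the list passed when anti-miR-503 replicate 1 was left out (6.23% of all rows), 3 when control replicate 3 was (3.2%) and 1 when control replicate 2 was (2.1%). None passed when anti-miR-503 replicate 2 (0.9%), anti-miR-503 replicate 3 (0.76%) or control replicate 1 (1.29%) was left out.

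Of 31 further collagens and laminins, 28 were under background on all arrays and 0 passed the 2-fold threshold, against 1.79% of all rows. One of the 3 others was LAMA1, the alpha chain of the embryonic laminin trimer with LAMB1 and LAMC1. It read 12.94, 12.58 and 13.03 in anti-miR-503 cells and 10.85, 11.87 and 13.48 in control cells, where control replicate 3 was above and the others below every anti-miR-503 array, a log2 fold change of 0.78 (SE 0.57, adjusted p = 0.802 by limma). Of 42 other matrix proteins, 1 passed the 2-fold threshold, against 1.79% of all rows, a share near that of the array as a whole. It was SMOC2, a calcium-binding relative of SPARC. It read 6.92, 8.26 and 7.69 in anti-miR-503 cells and 6.90, 5.73 and 6.27 in control cells, none of the control arrays being above background, so no fold is given (adjusted p = 0.756 by limma). When anti-miR-503 replicate 1 was left out, 2 genes of each of these lists passed (6.23% of all rows). When control replicate 3 was, 1 further chain and 2 other matrix proteins did (3.2%). With control replicate 2 left out, 1 further chain passed (2.1%). Log2 fold changes had a median of 0.09 over the further collagens and laminins and of 0.08 over the other matrix proteins. LAMC3 had a lower and COL6A5 a higher mean in anti-miR-503 cells. These 2 further chains had the smallest p and were under background on every array.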

How the data were processed

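MSTO-211H cells were profiled on 6 Clariom S arrays, 3 anti-miR-503 and 3 control. The authors deposited log2 signals made with RMA in Transcriptome Analysis Console, per the labels. Probes were thus already background-corrected, quantile-normalised and summarised, which can shrink low differences, while the sources used here do not give which RMA variant and annotation build they chose. Values reached 18.08, above the 16 bits of a scanner on the log2 scale. Rows for array controls (2903 of 24351) were left out, and 21448 were tested in R 4.3.3 with limma 3.58.1 (lmFit, eBayes), without covariates. P-values were adjusted over all rows by Benjamini-Hochberg. The 2-fold threshold asked for an absolute log2 fold change of 1 or more beside an unadjusted p of 0.05 or less. The fit was tested on simulated data. The platform annotation named 17709 rows by 1 symbol, 0 by several and left 3739 unnamed. Where only one group was above background, a fold was given as a lower limit against the detection limit of the other group's arrays, and only where that exceeded 1. Arrays have no read depth, so their number limits the precision, and signals of different rows are not comparable as levels, so their order served only to choose genes to name. P-values set a difference between groups against the spread among these arrays of 1 cell line. In limma that spread also draws on all rows tested.

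Rule-named matrix genes were COL6A2, FN1, LAMC1, SPARC and THBS2 (no overlap with a difference of at least 0.5, the 3 highest mean signals, or named in the study). In other lists, up to 4 genes past the 2-fold threshold were named, or the 2 with the smallest p. Other genes given array by array were chosen after their values were seen. The members and lists were chosen with earlier results of these data known. Alternatives were an unpaired t test, robust estimation with a variance trend, a filter on low rows, 1 row per gene, a second quantile normalization, median centring, array weights, a replicate block, 1.5-fold, and each array left out. The labels give no batch.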

Additional observations from a re-analysis of the deposited data

How the results depend on the processing

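The 3 arrays a group limit what could be seen: standard errors of the 18 matrix genes above background in both groups ran between 0.22 and 0.56 on the log2 scale, and the 95% interval reached a 2-fold difference in 12 of them. With 0 of 38 past the 2-fold threshold, the count was 1 after centring on the array median (NID1, against 1.79% of all rows). It was 2 with array weights (NID1 and THBS1, against 3.51%) and 3 at 1.5-fold (5.73%). Without both low-mitosis arrays (anti-miR-503 replicate 1 and control replicate 3) it was 5 (7.53%). With 1 array left out it ranged over 0 to 4 (3.2% at the highest, without control replicate 3). The adjusted count of 0 became 1 without both arrays (THBS1, against 2.37% of all rows). The 3 genes at an unadjusted p of 0.05 or less became 6 with array weights (11.9% of all rows) and 11 without both arrays (17.1%), ranging over 0 to 9 with 1 array left out (14.5% of all rows at the highest, without anti-miR-503 replicate 1). The 3 genes without overlap became 22 without both arrays (48.1% of all rows), ranging over 4 to 14 with 1 left out (31.9% at the highest, without the same array). The median log2 fold change of -0.13 became 0.11 with rows below the median level left out, which removes dim rows, and ranged over -0.214 to 0.0677 with 1 array left out.

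For collagen processing and crosslinking, 2 past the 2-fold threshold became 0 by the unpaired t test (0.434% of all rows) and 7 without both arrays (7.53%). The count ranged over 0 to 7 with 1 array left out (6.23% at the highest, without anti-miR-503 replicate 1). The further collagens and laminins (0) had 1 at 1.5-fold (5.73%) and 2 without both arrays (7.53%). They ranged over 0 to 2 with 1 left out (6.23% at the highest, without the same array). The other matrix proteins (1) had 0 by the t test (0.434%) and 2 without both arrays (7.53%). Their range was 1 to 2, the higher count without anti-miR-503 replicate 1 (6.23%) or control replicate 3 (3.2%). Among the 21 matrix genes above background in 1 group or both, the log2 fold change changed sign in 6. LAMB1 had -0.0396 with array weights, -0.0049 without both arrays and -0.24 to 0.26 with 1 left out. LAMA4 had -0.14 without both arrays and -0.19 to 0.47 with 1 left out. With 1 array left out LAMB2 ranged over -0.12 to 0.26, COL12A1 over -0.427 to 0.0931, BGN over -0.14 to 0.45 and TGFBI over -0.049 to 0.629. Across the values of these 21 genes, 290 kept direction and side of the threshold, 14 passed it and 11 changed sign. The cause was not tested. Same-numbered arrays deviated together with r = -0.1, 0.213 and 2.94e-05 over 21448 rows. Anti-miR-503 replicate 1 and control replicate 3, the low-mitosis arrays, did so with r = 0.245. These values therefore cannot decide whether the numbers pair the arrays, and the labels do not say. With the replicate block 0 matrix genes passed the 2-fold threshold (1.98% of all rows). At an unadjusted p of 0.05 or less by limma there were 4 (7.95% of all rows).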
